A study of Mus musculus with 23 samples.

Results

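Myostatin (Mstn) and 9 other genes that carry growth signals to or from skeletal muscle were followed here through mouse gastrocnemius: the growth inhibitor itself, its antagonist Fst and its receptor Acvr2b; the growth factor Igf1 and its receptor Igf1r; and 5 secreted factors linked to exercise, Il6, Il15, Fndc5, Metrnl and Fgf21. The genes were listed by symbol for these roles. No measured value entered the rule, but the list was made with earlier results of these data known. The genes were found on the arrays through the RefSeq accession of each probe. All 10 were among the 15472 named genes, and among the 27254 features in all, that could be tested.

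Messenger RNA was measured on 1-colour Agilent arrays, 1 per mouse, in gastrocnemius of male C57BL/6J mice, an inbred strain, that were housed singly and trained on a treadmill every day for 4 weeks. The 6 groups were old mice given high-intensity intermittent training (old HIIT, n = 4), old mice given moderate-intensity continuous training (old MICT, n = 4), sedentary old mice (old control, n = 4), adult HIIT (n = 4), adult MICT (n = 3, with replicate 2 not analysed here) and sedentary adult mice (adult control, n = 4). Old mice were 24 months of age at the start and adult mice 5 months, which the sample labels give as 25 and 6 months. In a HIIT session mice ran 3 times for 2 min on a belt moving at 27 m/min and recovered for 1 min at 5 m/min after each but the last bout, in a MICT session they ran for 45 min without pause at 13 m/min, and controls stood on a stopped belt. Muscle was taken after 12 h of rest, so the arrays describe trained muscle at rest and not the hours just after a run. The comparisons ask how each regimen and age itself moved these signals, and whether the old responded as the adult did.

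Myostatin is a secreted member of the TGF-beta family that is made by muscle fibres and limits their growth. It signals through activin type II receptors, of which Acvr2b is the one it binds best, and the receptor complex phosphorylates SMAD proteins; follistatin (Fst) binds myostatin and activins and keeps them from the receptor. Igf1 acts through Igf1r in the opposite sense, by way of AKT and mTOR, and contracting muscle also releases cytokines and hormone-like proteins that act on fat, liver and immune cells.

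The array's genome annotation is of mm9, whereas the RefSeq table used for gene names and promoters is of GRCm38.p6, so the coordinates here are of GRCm38.p6 and belong to the promoter table. The table held promoters of 8 of the 10 genes, all but Fst and Il15. Shown are the 250 bases before the transcription start of the 3 genes that passed the test in some comparison, 5′ to 3′ on the gene's own strand, with every match to 5 short motifs in capitals. The motifs, searched on both strands, were the E-box CANNTG, at which muscle regulatory factors bind, the TATA box TATAAA, the glucocorticoid receptor motif AGAACA, the FOXO motif GTAAACA and the amino acid response element TTGCATCA, at which ATF4 binds.
Mstn, chr1:53061390-53061639, plus strand: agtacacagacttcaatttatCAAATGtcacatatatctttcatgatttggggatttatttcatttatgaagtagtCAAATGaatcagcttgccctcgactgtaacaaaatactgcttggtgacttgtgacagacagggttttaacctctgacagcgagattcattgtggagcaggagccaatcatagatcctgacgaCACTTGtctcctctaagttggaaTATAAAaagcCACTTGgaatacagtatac
Metrnl, chr11:121702177-121702426, plus strand: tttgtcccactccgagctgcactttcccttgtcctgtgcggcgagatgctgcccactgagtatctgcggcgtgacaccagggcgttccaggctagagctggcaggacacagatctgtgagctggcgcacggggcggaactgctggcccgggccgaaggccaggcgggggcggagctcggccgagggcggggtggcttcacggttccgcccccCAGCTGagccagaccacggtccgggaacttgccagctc
Fgf21, chr7:45615491-45615740, minus strand: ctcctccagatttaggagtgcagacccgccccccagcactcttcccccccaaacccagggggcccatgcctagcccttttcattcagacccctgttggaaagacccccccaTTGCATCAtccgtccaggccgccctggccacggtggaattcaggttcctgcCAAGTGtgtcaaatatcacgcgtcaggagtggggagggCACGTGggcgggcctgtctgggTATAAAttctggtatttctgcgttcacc

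The Mstn stretch held 4 E-boxes and a TATA box at 29 to 24 bases before the start. E-boxes stood in 66.2% and TATA boxes in 12.3% of the 32544 promoters of that length. AGAACA (in 16.03% of promoters) and GTAAACA (in 3.17%) were not among the letters of that window, which says nothing of the factors elsewhere in the gene. The Metrnl stretch held 1 E-box and no TATA box. The Fgf21 stretch held 2 E-boxes, a TATA box at 28 to 23 bases before the start and the element TTGCATCA at 139 to 132 bases, which only 0.762% of promoters hold. No matches overlapped, and they describe the sequence and are not evidence of binding.

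Signal is given as scaled log2 intensity, which is the log2 of the processed signal less the 75th percentile of the same array, so 0 marks that percentile and 1 unit is a doubling. Levels are compared between arrays for the same probe and not between genes, since probes differ in brightness. Of the 10 genes, 8 were well above background on all 23 arrays. Il6 was above background on 16 arrays and Fgf21 on 4. All 11 fast-twitch fibre genes used to check the tissue were above background on every array. The 3 slides held 8, 7 and 8 arrays: adult HIIT with adult controls, adult MICT with old controls, and old HIIT with old MICT. Only the comparisons inside a slide are free of it, and in every other comparison slide and group cannot be told apart.

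**Figure D1:**
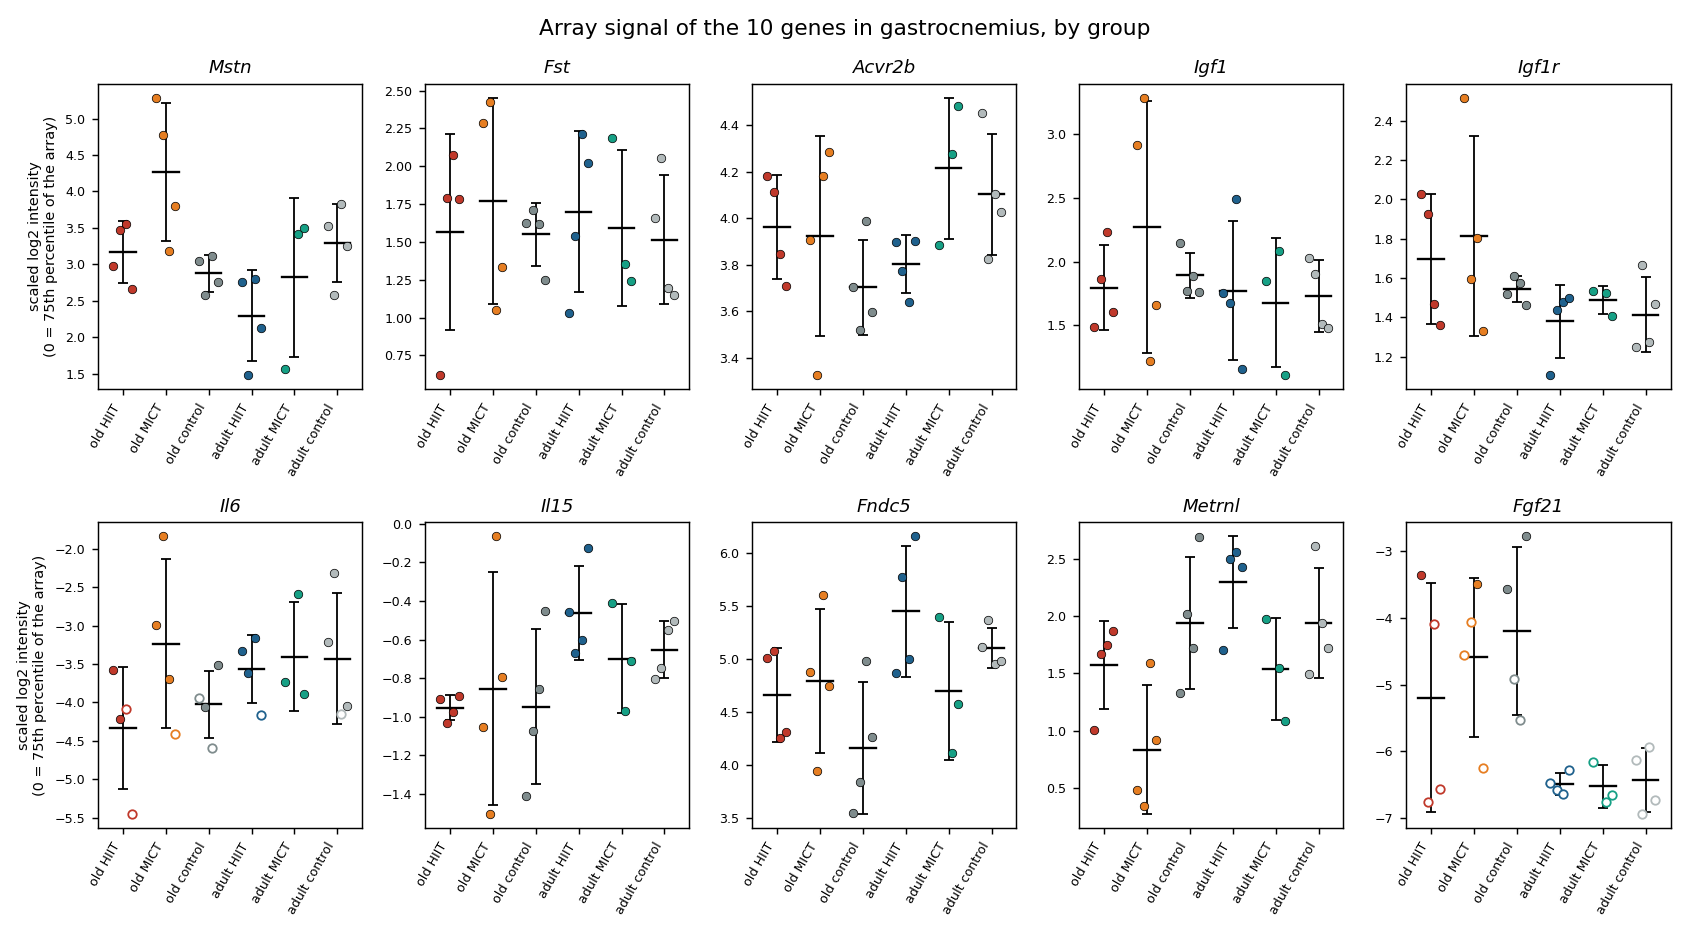
Scaled log2 intensity (vertical axes, 0 at the 75th percentile of each array) of the 10 genes in the 6 groups. Each point is an array, open where the probe was not well above background, bars are the mean ± SD, and each panel has its own axis. Mstn is highest in old MICT arrays 1 and 2, Metrnl is lowest in the same arrays, and every adult point of Fgf21 is open.

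Differences were tested with limma over all 27254 features, with a call at an adjusted p under 0.05, and a difference is followed by its standard error (SE) unless an SD is named. In old MICT against old control, 2 of the 10 genes were called, where 29.2% of all features were called. Mstn was the 1 called higher (21.1% of all features) and Metrnl the 1 called lower (8.09%). In old control against adult control 1 gene was called, Fgf21, where 13.6% of all features were called, 4.23% higher and 9.34% lower. At an unadjusted p under 0.05 these comparisons held 2 of the 10 genes (43.2% of all features) and 3 of the 10 (32.8%). None of the 10 was called in the other 7 comparisons. There the called share of all features was 0.859% for old HIIT against old control, 1.2% for the MICT response of old minus adult mice, and 0% for adult HIIT and for adult MICT against adult control, for HIIT against MICT at either age and for the HIIT response of old minus adult mice. At an unadjusted p under 0.05, the count of the 10 genes in those 7 comparisons was 3 for old HIIT against old MICT, where 15.7% of all features lay under it. It was 1 for adult HIIT against adult control (5.27%), 1 for adult HIIT against adult MICT (8.39%), 1 for the HIIT response (11.9%) and 1 for the MICT response (25.4%). No gene lay under it for old HIIT against old control (16.6%) or adult MICT against adult control (2.34%).

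**Figure D2:**
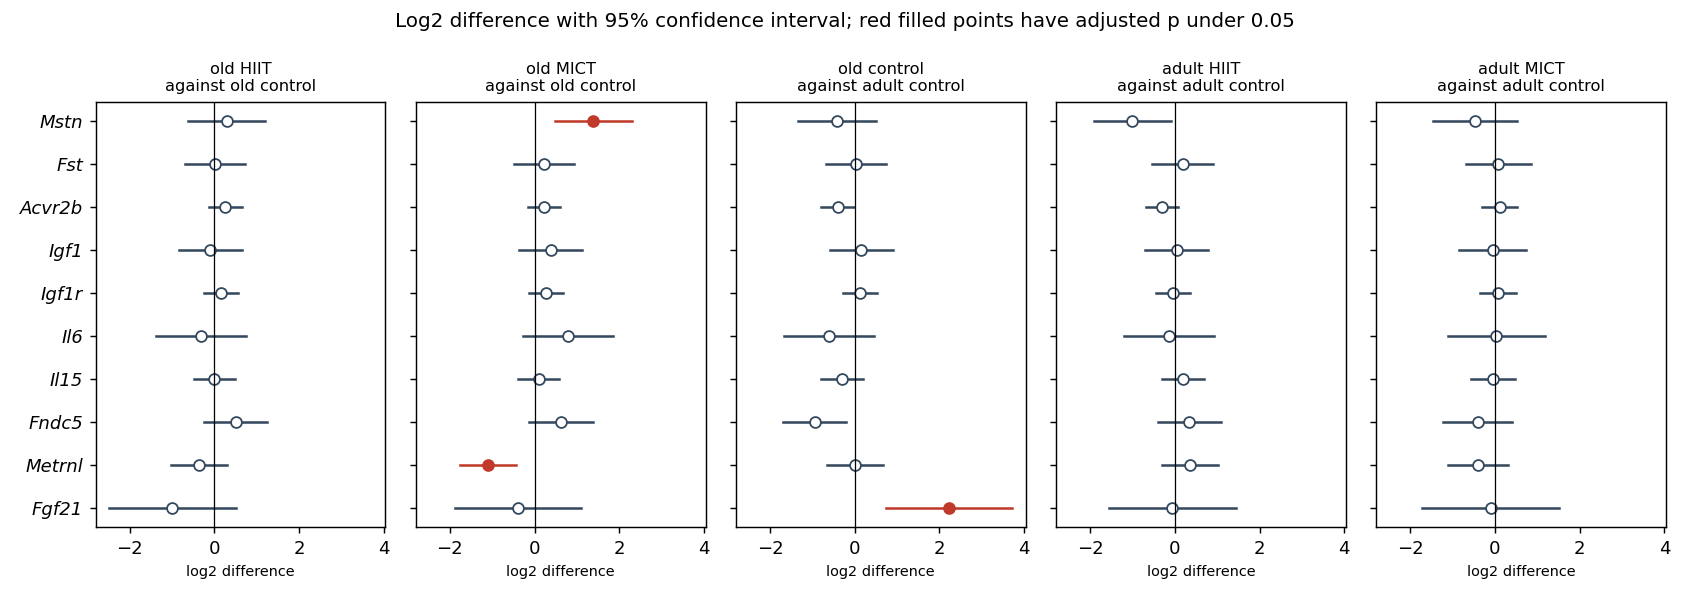
Log2 difference (horizontal axes) of each of the 10 genes in 5 comparisons, with limma's 95% confidence interval; red filled points have an adjusted p under 0.05. Mstn and Metrnl in old MICT and Fgf21 in old controls are the 3 filled points, and most other intervals span 0.

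Mstn was higher in old mice after MICT than in old sedentary mice, and this was the only training comparison in which it was called. Its scaled log2 intensity was 5.29, 4.78, 3.18 and 3.81 in old MICT arrays 1 to 4, against 3.05, 2.59, 3.12 and 2.75 in old controls. Every old MICT array lay above every old control, though array 3 lay only just above, and arrays 1 and 2 stood far above the rest of the series. Mstn was the only 1 of the 10 without overlap here, as were 21.4% of all features. The difference was 1.39 ± 0.44 log2 units, or 2.62-fold (95% confidence interval 0.47 to 2.30 log2 units, n = 4 and 4, limma adjusted p = 0.0251). The median of all features in the same comparison was 0.21, and most calls were higher (72.3% of 7960). That split was 59.1% with quantile scaling and 37.2% when the percentile was taken over probes above background on all arrays, while the Mstn difference was 1.16 under either.

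The call rested on arrays 1 and 2 of old MICT. Without both, a choice made after the values were seen, the Mstn difference was 0.62 (limma adjusted p = 0.390). Left out singly, old MICT 1, old MICT 2, old control 2 and old control 4 each ended the call, with adjusted p between 0.0504 and 0.0945 and a difference of 1.05 to 1.35. Quantile scaling also left it just short (adjusted p = 0.0503). An additive model of age, regimen and slide gave 0.10 ± 0.62 (limma adjusted p = 0.977), but it takes each regimen to act alike at both ages. With this slide layout, its value comes from adult HIIT against adult control and old MICT against old HIIT. No old control enters it, so it cannot say how much of the old MICT difference belongs to slide. Inside a slide, old HIIT was lower in Mstn than old MICT by -1.10 ± 0.44, which lay under an unadjusted p of 0.05 but was not called (limma adjusted p = 0.257).

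Genes that glucocorticoids are known to induce moved with Mstn in these arrays. Their score, the median over 10 genes of the log2 deviation from adult controls, was 3.18, 3.44, 0.78 and 0.31 in old MICT arrays 1 to 4, against 0.35, 0.12, 0.14 and 0.09 in old controls. Their summed level ran from 335.3 to 3088 in old MICT and from 256.8 to 379.5 in old controls, in units of each array's 75th percentile, with all 10 above background on every array. Mstn did not follow the score everywhere: old HIIT 1 had a score of 2.20 and a Mstn level of 2.98, inside the range of the old controls. The part of the score in the Mstn difference was not tested.

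In old HIIT the Mstn level was 2.98, 3.48, 3.55 and 2.66, which overlapped the old controls (difference 0.29 ± 0.44, 95% confidence interval -0.62 to 1.20, limma adjusted p = 0.770). In adult mice the estimates pointed down with both regimens. Adult HIIT arrays had 2.76, 1.48, 2.80 and 2.13, against 3.52, 2.57, 3.83 and 3.26 in adult controls on the same slide. The groups overlapped. The difference was -1.003 ± 0.44 (n = 4 and 4), under an unadjusted p of 0.05 but not called after adjustment over all features (limma adjusted p = 0.914). Adult MICT arrays 1, 3 and 4 had 1.56, 3.41 and 3.49, with the largest SD of the 6 groups (1.09), and the difference from adult controls was -0.47 ± 0.47 (limma adjusted p = 1). Without array 1 of adult MICT, that estimate was above 0 (0.16).

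The difference in response between ages was tested directly. The MICT response of Mstn was larger in old than in adult mice by 1.86 ± 0.65 log2 units, short of a call (limma adjusted p = 0.110). The HIIT response differed by 1.29 ± 0.62 in the same sense (adjusted p = 0.418). Old controls themselves were not called different from adult controls (-0.42 ± 0.44, 95% confidence interval -1.33 to 0.49, adjusted p = 0.526). From high to low, the group means of Mstn were 4.26 ± 0.95 in old MICT, 3.30 ± 0.53 in adult control, 3.16 ± 0.42 in old HIIT, 2.88 ± 0.25 in old control, 2.82 ± 1.09 in adult MICT and 2.29 ± 0.62 in adult HIIT (SD). Only the step from old MICT to the next group exceeded the larger SD of the pair.

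Fst, the myostatin antagonist, was flat across the study. Its highest group mean was 1.77 ± 0.68 in old MICT and its lowest 1.51 ± 0.43 in adult controls (SD), and no neighbouring pair in their order differed by more than its larger SD. The spread lay inside the groups: old MICT arrays 1 and 2 had 2.28 and 2.42, and arrays 3 and 4 had 1.05 and 1.33. Old controls had 1.63, 1.71, 1.62 and 1.25, all below arrays 1 and 2 and all above array 3. The old MICT difference was 0.22 ± 0.34 (95% confidence interval -0.49 to 0.94, limma adjusted p = 0.631), so a doubling lay outside the interval and smaller changes did not. Old HIIT arrays had 0.62, 1.79, 2.08 and 1.78, a difference from old controls of 0.02 ± 0.34 (adjusted p = 0.984). In adults Fst was 1.03, 1.54, 2.21 and 2.02 with HIIT, 2.19, 1.35 and 1.24 with MICT, and 1.66, 2.05, 1.20 and 1.15 in controls, and the groups overlapped.

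Acvr2b, the type II receptor, varied little. Old HIIT arrays had 4.18, 4.11, 3.85 and 3.71, old MICT arrays 3.91, 3.33, 4.18 and 4.28, and old controls 3.71, 3.52, 3.99 and 3.60. In adults the levels were 3.90, 3.77, 3.64 and 3.90 with HIIT, 3.89, 4.28 and 4.48 with MICT, and 4.45, 3.83, 4.10 and 4.02 in controls. All groups overlapped their controls, and old controls sat lower than adult controls by an uncalled margin (-0.40 ± 0.18, limma adjusted p = 0.139). The HIIT estimates had opposite signs at the 2 ages, 0.26 ± 0.18 in old and -0.30 ± 0.18 in adult mice, and neither was called (limma adjusted p = 0.490 and 0.916). The difference between these responses was 0.56 ± 0.26, not called after adjustment (limma adjusted p = 0.413).

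The wider myostatin and activin pathway was read from lists of genes that were chosen, like the 10 genes, with earlier results of these data known. In old MICT against old control, 2 of 13 genes for ligands of the TGF-beta family rose and 1 fell. Of all features, 21.1% were called higher and 8.09% lower. The list was labelled activin receptor ligands, but it also held the TGF-betas and other members of that family. Tgfb3 was higher by 0.47 ± 0.12 and Bmp4 by 0.81 ± 0.21, while Tgfb1, the founding member of the family, was lower by -1.16 ± 0.30 (limma adjusted p between 0.0100 and 0.0108). Of 12 tested ligand inhibitors and processing enzymes, 2 rose and 2 fell, close to the 29.2% of all features called. Wfikkn2, a secreted inhibitor of myostatin and Gdf11, was higher by 0.78 ± 0.16, and so was Dcn, the matrix proteoglycan decorin (0.44 ± 0.13). Bmp1, a protease that frees myostatin from its propeptide, was lower by -0.65 ± 0.16 and Fstl1, a follistatin-like secreted protein, by -1.21 ± 0.33.

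Of 19 activin and BMP receptors and SMADs, 5 rose and 1 fell in old MICT, again close to the 29.2% of all features. Acvr1b, a type I receptor through which myostatin signals, was higher by 1.76 ± 0.46 and Tgfbr1, another type I receptor, by 0.70 ± 0.20. Smad4, the partner shared by all receptor-activated SMADs, was higher by 0.65 ± 0.14. Id2, a target gene of BMP signalling, was lower by -1.60 ± 0.36 (limma adjusted p between 0.00474 and 0.0146 for these 4). The median difference over the list was 0.19, near the 0.21 of all features. No gene of the 8 pathway lists was called in old HIIT, adult HIIT or adult MICT against their controls with limma, where 13, 6 and 2 of 119 lay under an unadjusted p of 0.05. The shares of all features under that p were 16.6%, 5.27% and 2.34%, so these counts were no higher than the background.

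**Figure D3:**
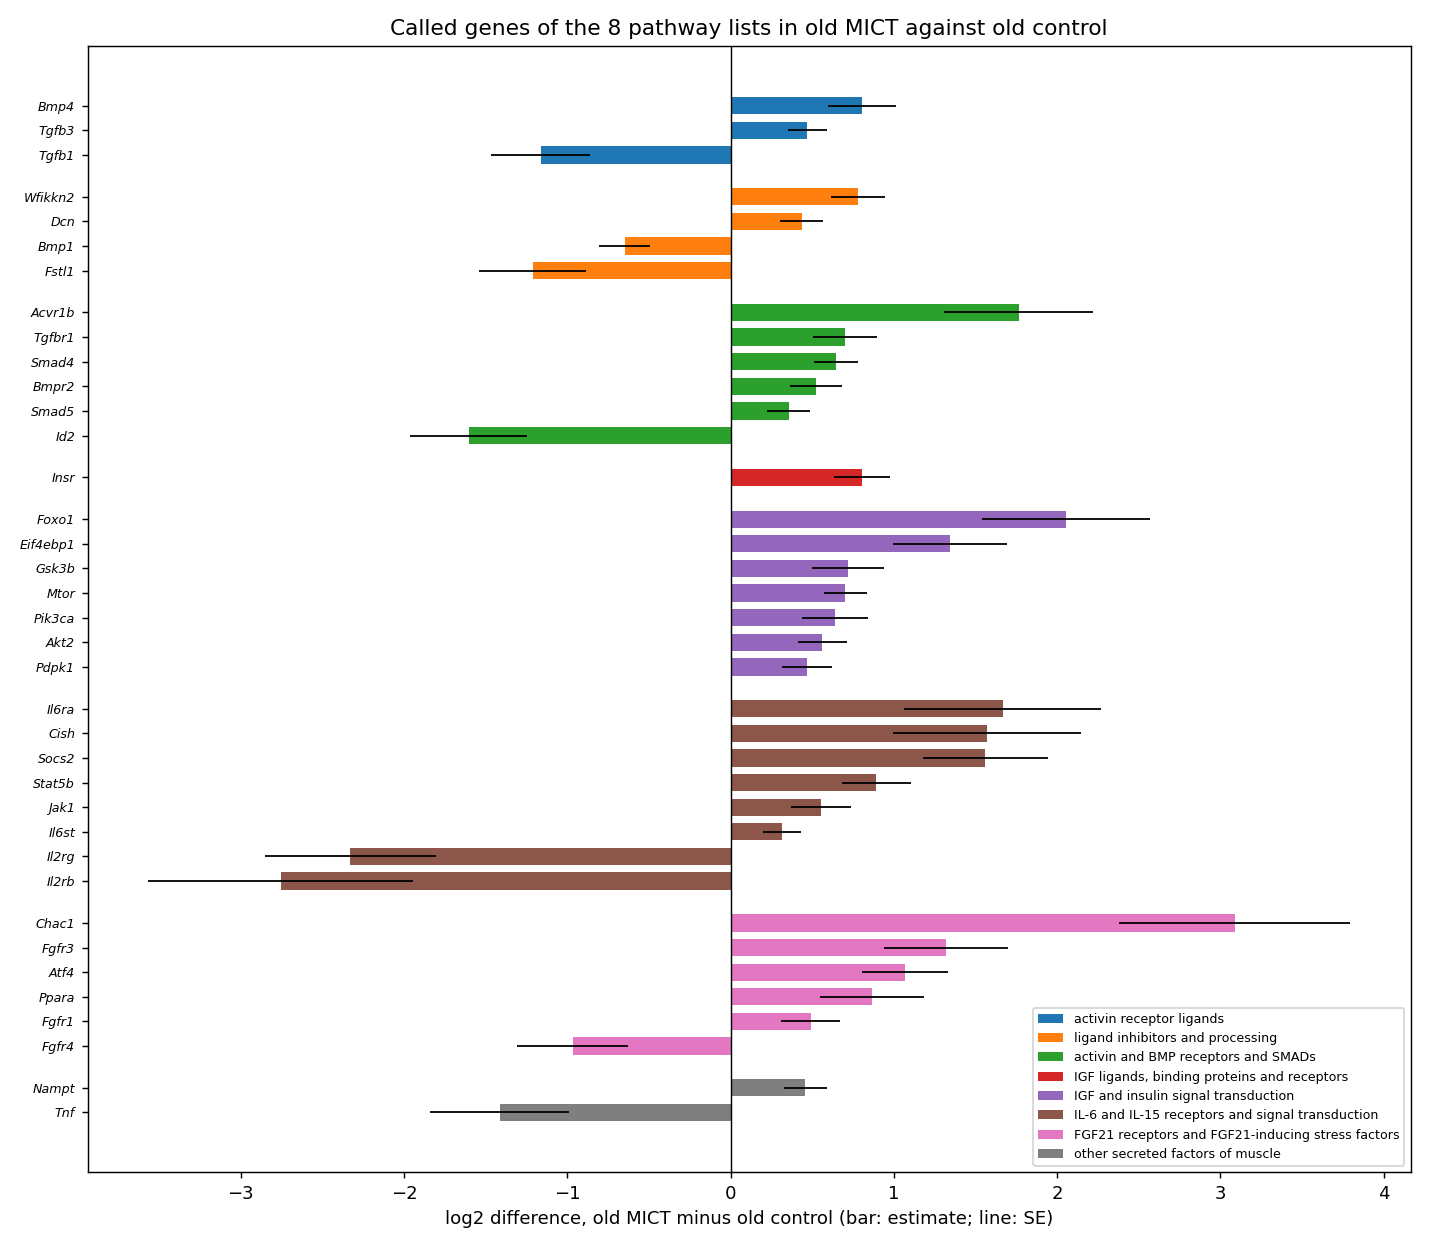
Log2 difference, old MICT minus old control (horizontal axis, bars with SE), of the 37 called genes of the 8 pathway lists, coloured by list. The 7 called genes of IGF and insulin signal transduction all lie to the right of 0, and Chac1, at 3.09, is the longest bar.

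Igf1, the main growth factor made within muscle, was not called in any comparison, and its 4 probes did not agree on a direction. By the brightest probe (A_55_P2085974), old MICT arrays had 2.92, 3.29, 1.22 and 1.66, against 2.15, 1.77, 1.89 and 1.76 in old controls. Arrays 1 and 2 lay above the controls and arrays 3 and 4 below them, and the difference was 0.38 ± 0.35 (limma adjusted p = 0.414). Probe A_55_P2031636 gave 0.45 ± 0.25, whereas A_55_P2031631 and A_55_P2085984 gave -0.23 ± 0.28 and -0.22 ± 0.28. Between old and adult controls 3 probes gave estimates above 0 and 1 below. A_55_P2031631 and A_55_P2085984 gave 0.52 ± 0.28 and 0.60 ± 0.28, A_55_P2085974 gave 0.16 ± 0.35 and A_55_P2031636 gave -0.34 ± 0.25, with adjusted p of 0.140 or more. Which transcript each probe reads was not examined. In adults the brightest probe had 1.76, 1.68, 2.49 and 1.16 with HIIT, 1.85, 2.08 and 1.11 with MICT, and 2.03, 1.91, 1.51 and 1.48 in controls. Those groups overlapped, with differences of 0.04 ± 0.35 for HIIT and -0.05 ± 0.38 for MICT (limma adjusted p = 0.994 and 1).

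**Figure D4:**
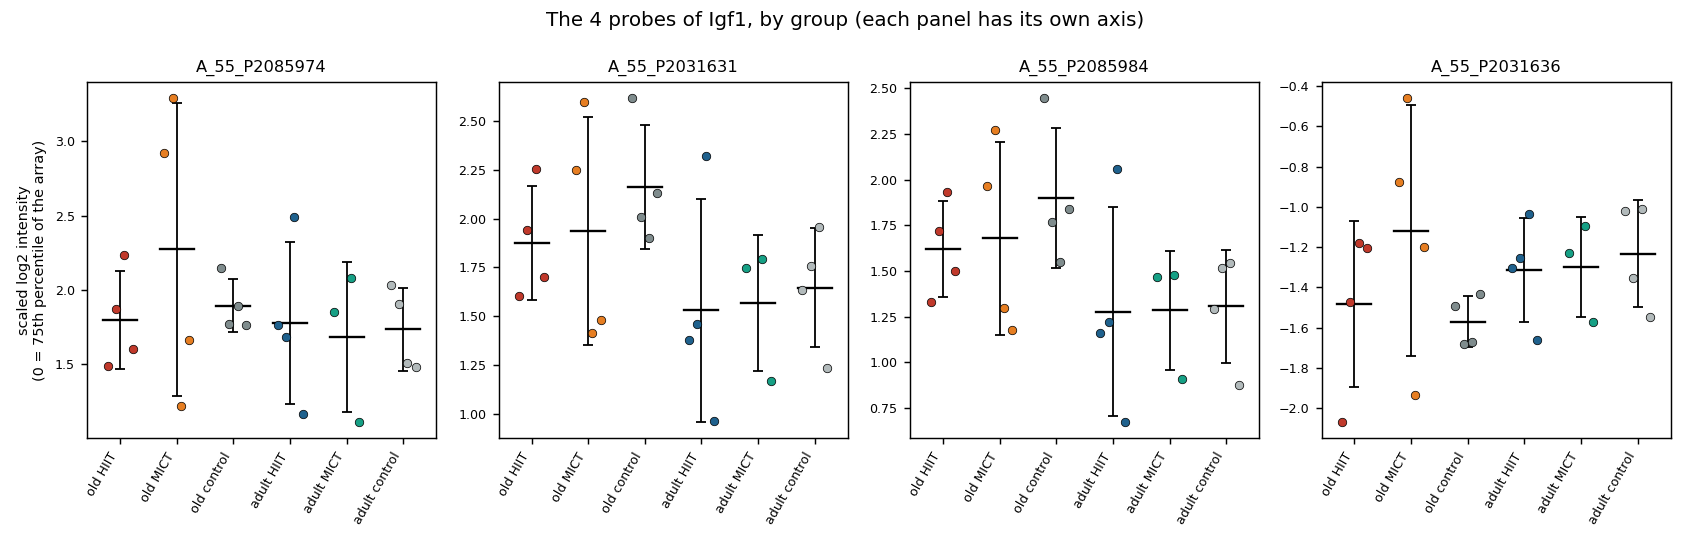
Scaled log2 intensity (vertical axes) of the 4 Igf1 probes in the 6 groups, with each array as a point and the mean ± SD. Old MICT arrays 1 and 2 are the highest of their group in every panel, and on average the old controls stand above the adult controls for A_55_P2031631 and A_55_P2085984 but below them for A_55_P2031636.

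By the brightest probe, group means of Igf1 ran from 1.68 ± 0.51 in adult MICT to 2.27 ± 0.99 in old MICT (SD), and no step between neighbours exceeded the larger SD. Igf1r, its receptor tyrosine kinase, was as steady, from 1.38 ± 0.18 in adult HIIT to 1.81 ± 0.51 in old MICT. Old MICT 1 had the highest Igf1r level of the series, 2.52, and the other arrays of that group had 1.59, 1.80 and 1.33. Old controls had 1.52, 1.61, 1.58 and 1.46. The old MICT difference was 0.27 ± 0.19 (95% confidence interval -0.13 to 0.67, limma adjusted p = 0.286) and the old HIIT difference 0.15 ± 0.19 (adjusted p = 0.715). In adults the differences from control were smaller still, -0.03 ± 0.19 with HIIT and 0.07 ± 0.21 with MICT, and their intervals of -0.44 to 0.37 and -0.36 to 0.51 leave out any doubling.

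Downstream of these receptors more genes were called. In old MICT against old control, 7 of 15 tested genes of IGF and insulin signal transduction rose and none fell (21.1% of all features were called higher and 8.09% lower), with a median over the list of 0.56 against 0.21 for all features. Those with the smallest p were Mtor, the kinase that promotes protein synthesis (0.70 ± 0.13), Foxo1, a transcription factor that promotes protein breakdown (2.05 ± 0.52), and Eif4ebp1, a repressor of translation that mTOR inactivates (1.35 ± 0.35), with limma adjusted p between 0.00308 and 0.0105. The list thus held called genes of both anabolic and catabolic function. Of 13 tested IGF ligands, binding proteins and receptors, 1 rose, the insulin receptor Insr (0.81 ± 0.17). In old control against adult control, Akt2, the AKT form that carries the insulin signal in muscle, was lower by -0.48 ± 0.15. Stc2, which inhibits a protease of IGF binding proteins, was higher by 1.65 ± 0.40.

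The pathway counts of old MICT depended on few arrays. All 8 lists together held 29 genes higher and 8 lower of 119 tested, close to the 21.1% and 8.09% of all features, so the lists as a whole did not stand out by their counts. Without old controls 1 and 2, whose lymphocyte genes were high, 1 was higher (Fgfr3) and 2 were lower (Bmp1 and Fgfr4), and without old MICT 1 and 2 none was called. Scores for B and plasma cell genes were -0.05 to 0.43 in old MICT. Old controls 1 to 4 scored 6.12, 4.74, 2.43 and 1.94, and adult controls -0.26 to 0.02. The sum of its 7 tested genes ran from 0.91 to 2.06 in old MICT, from 2.64 to 66.1 in old controls and from 0.63 to 0.81 in adult controls. The part of these cells in the pathway counts was not tested. In bulk muscle, fewer cells of a type and less RNA per cell cannot be told apart.

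Il6, a cytokine that working muscle releases, was near the detection limit. It was above background on 2 of 4 old HIIT arrays, 3 of 4 old MICT, 2 of 4 old control, 3 of 4 adult HIIT, 3 of 3 adult MICT and 3 of 4 adult control arrays. Old HIIT arrays had -3.58, -4.22, -4.08 and -5.45, old MICT arrays -2.99, -1.83, -3.70 and -4.41, and old controls -3.94, -4.06, -4.59 and -3.52. Old MICT 2 was the brightest array of the series and old HIIT 4 the dimmest. Adult HIIT arrays had -3.33, -3.61, -3.15 and -4.16, adult MICT arrays -3.74, -2.58 and -3.88, and adult controls -3.21, -2.32, -4.15 and -4.04. The difference of old MICT from old control was 0.79 ± 0.51 (limma adjusted p = 0.234). Old HIIT was lower than old MICT, on the same slide, by -1.10 ± 0.51, which was not called (limma adjusted p = 0.303).

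Il15, a cytokine abundant in muscle that sustains lymphocytes, was detected everywhere and was not called in any comparison. The highest group mean was -0.46 ± 0.24 in adult HIIT and the lowest were -0.95 ± 0.07 in old HIIT and -0.95 ± 0.40 in old control (SD), with the 3 old groups below the 3 adult groups. The age difference between controls was -0.30 ± 0.23 (95% confidence interval -0.79 to 0.19, limma adjusted p = 0.388). Old HIIT arrays were alike, at -0.91, -1.04, -0.98 and -0.89, whereas old MICT arrays, at -1.05, -1.505, -0.06 and -0.79, ran wider than any other group. Old controls had -1.41, -1.07, -0.86 and -0.45.

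Of 18 tested receptors and signalling genes of these cytokines, 6 were called higher and 2 lower in old MICT against old control, where 21.1% and 8.09% of all features were. Il2rb and Il2rg, receptor chains that IL-15 shares with IL-2 and that lymphocytes carry, were lower by -2.76 ± 0.81 and -2.33 ± 0.52. In old control against adult control, which shares the old controls, they were higher by 3.68 ± 0.81 and 1.89 ± 0.52. Il2rg was above background on every array, but Il2rb was so on 2 of 4 old MICT, 4 of 4 old control and 1 of 4 adult control arrays. The differences of Il2rb are thus of measured signals that lie in part at background. Among adult arrays, only adult HIIT 3 and adult control 2 were above background for Il2rb. It passed the filter of at least 3 arrays through old arrays, so the filter was not blind to age. Stat5b was higher in old MICT by 0.89 ± 0.21, Socs2, a STAT5 target that dampens cytokine and growth hormone signals, by 1.56 ± 0.38, and Jak1, a receptor kinase, by 0.56 ± 0.18. Il6ra, the IL-6 receptor chain, was among the other genes that rose (1.67 ± 0.60, limma adjusted p = 0.0436), and was picked out after its value was seen.

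Fndc5 encodes the membrane protein from which irisin is cleaved. Old HIIT arrays had levels of 5.01, 5.08, 4.26 and 4.31, old MICT arrays 4.88, 3.94, 5.60 and 4.75, and old controls 3.56, 3.84, 4.98 and 4.27. In adult mice the levels were 4.87, 5.77, 5.00 and 6.16 with HIIT, 5.40, 4.12 and 4.58 with MICT, and 5.12, 5.37, 4.96 and 4.98 in controls. Old controls 1, 2 and 4 lay below all adult controls and old control 3 just inside their range. The age difference was -0.95 ± 0.36 and was not called (limma adjusted p = 0.0781). Of 38 alternatives, 2 called it, leaving out old control 3 (-1.22, adjusted p = 0.0225) and array weights (-1.06, adjusted p = 0.0219). Without old controls 1 and 2 the age difference shrank to -0.48 (adjusted p = 0.627). The additive model with slide gave -0.07 (adjusted p = 0.977). That value draws on the trained groups and takes each regimen to act alike at both ages, so it is not the difference between the controls alone.

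Training differences in Fndc5 were not called: 0.50 ± 0.36 in old HIIT, 0.63 ± 0.36 in old MICT, 0.34 ± 0.36 in adult HIIT and -0.41 ± 0.39 in adult MICT, each against its control (limma adjusted p of 0.183 or more). The MICT response differed between old and adult mice by 1.04 ± 0.53, also uncalled (adjusted p = 0.219). The order of group means was adult HIIT at 5.45 ± 0.62, adult control at 5.11 ± 0.19, old MICT at 4.79 ± 0.68, adult MICT at 4.70 ± 0.65, old HIIT at 4.66 ± 0.44 and old control at 4.16 ± 0.62 (SD), with no step larger than the larger SD of its pair. The slow-twitch fibre score followed Fndc5 in some arrays and not in others. It was 2.11 and 1.96 in adult HIIT 2 and 4, the arrays with the most Fndc5 (5.77 and 6.16), and -1.52 in old control 1, the array with the least (3.56). In old MICT, however, every score was below 0 (-1.91 to -0.62), and array 3, with a Fndc5 level of 5.60, scored -1.91. The lowest score of the series, -2.18, was that of adult MICT 3, where Fndc5 was 4.12. The summed level of its 10 genes ran from 686.2 to 1629 in old HIIT, from 457.9 to 863.0 in old MICT, from 1014 to 4040 in adult HIIT, from 290.8 to 2498 in adult MICT, from 445.4 to 2703 in old control and from 800.3 to 2743 in adult control, with all 10 above background throughout. Its part in the Fndc5 values was not tested.

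Metrnl, meteorin-like, a hormone-like protein released by exercised muscle and by other cells of the tissue, was lower in old mice after MICT. The level of its detected probe was 0.49, 0.34, 1.59 and 0.92 in old MICT, against 1.33, 2.02, 1.72 and 2.69 in old controls. Arrays 1, 2 and 4 lay below every control, and array 3 lay above old control 1, so the groups overlapped. The difference was -1.11 ± 0.32, or 2.15-fold lower (95% confidence interval -1.77 to -0.45, n = 4 and 4, limma adjusted p = 0.0160). It was negative in every alternative run, and between -1.37 and -0.38 in all but the run on the deposited scores, which have a scale of their own. The -0.38 was of the additive model with slide (limma adjusted p = 0.836), whose value does not draw on the old controls. The call also ended with the compared groups alone (limma adjusted p = 0.0701) and without old controls 1 and 2 together (limma adjusted p = 0.0604). Leaving out old control 4, old MICT 1 or old MICT 2 singly ended the call, with adjusted p between 0.0520 and 0.0574, and without old MICT 1 and 2 together the difference was -0.69 (adjusted p = 0.236).

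Metrnl was not called elsewhere. Old HIIT arrays had 1.01, 1.67, 1.75 and 1.87, overlapping the old controls (-0.37 ± 0.32, limma adjusted p = 0.570). Within a slide, old HIIT exceeded old MICT by 0.74 ± 0.32 (limma adjusted p = 0.276). Adult HIIT had 1.70, 2.50, 2.56 and 2.43, adult MICT 1.98, 1.55 and 1.08, and adult controls 1.49, 2.61, 1.94 and 1.72. Adult HIIT exceeded adult MICT by 0.76 ± 0.34 (limma adjusted p = 0.558), across slides. The means of old and adult controls were both 1.94, and the interval of their difference was -0.66 to 0.66. In the order of means, only the step from adult MICT (1.54 ± 0.45) down to old MICT (0.83 ± 0.56, SD) exceeded the larger SD of its pair. The second probe of the gene, A_66_P135937, was not above background on any array and adds no value.

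Fibroblast genes were low in the same arrays as Metrnl. Of 10 fibroblast genes, 8 were called lower and 1 higher in old MICT against old control (8.09% and 21.1% of all features). The 1 called higher was Dcn, given above among the ligand inhibitors. The score of the 10 genes was -2.20, -1.35, -0.89 and -0.74 in old MICT, against -0.23, -0.05, -0.05 and 0.71 in old controls. Their summed level was 507.2 to 573.4 in old MICT and 520.2 to 806.0 in old controls, with all 10 above background on every array. The part of fibroblasts in the Metrnl difference was not tested.

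**Figure D5:**
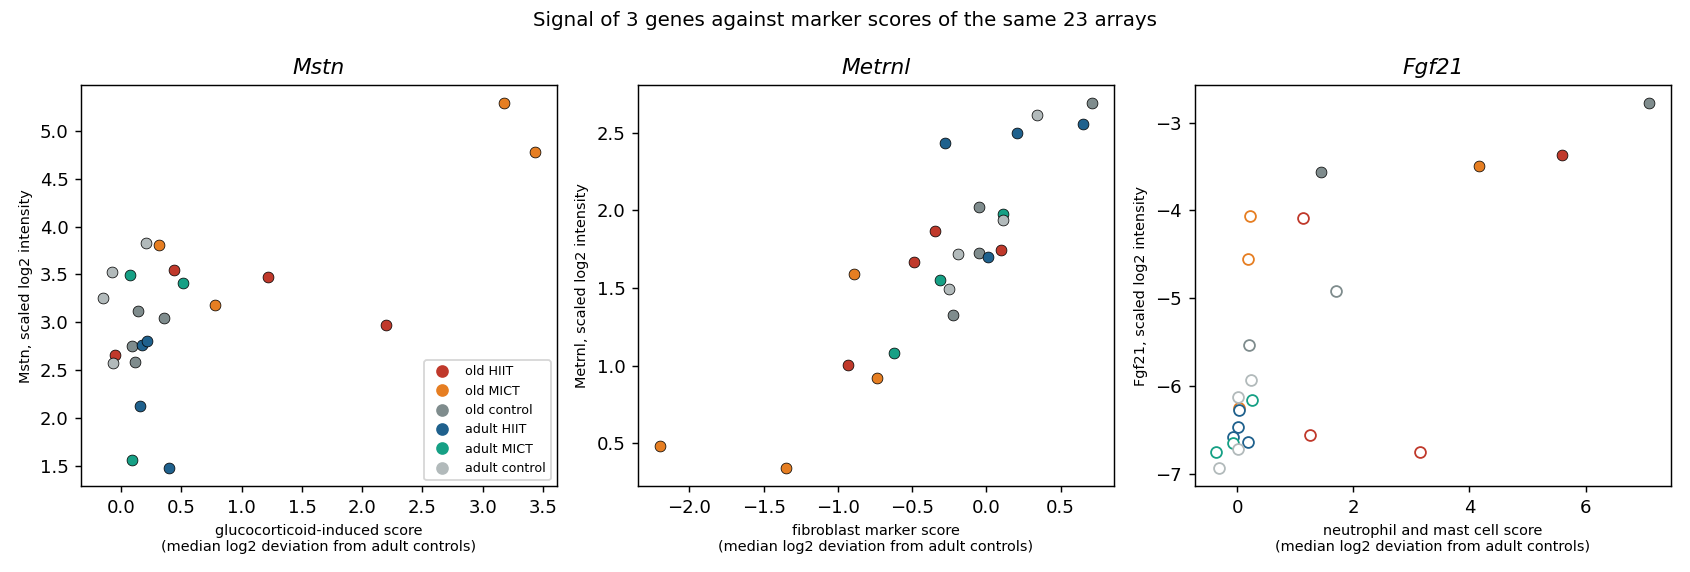
Scaled log2 intensity of Mstn, Metrnl and Fgf21 (vertical axes) against a marker score of the same array (horizontal axes, median log2 deviation from adult controls), with 23 arrays coloured by group and open points not well above background. Old MICT arrays 1 and 2 lie at glucocorticoid-induced scores of 3.18 and 3.44 and at the lowest fibroblast scores, and the 4 filled Fgf21 points have neutrophil and mast cell scores of 1.45 to 7.09.

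Fgf21, a hormone that stressed liver and muscle secrete and that acts through Klb and FGF receptors, was detected in old mice only. It was above background on old HIIT 1 (-3.36), old MICT 3 (-3.49) and old controls 1 and 4 (-3.56 and -2.78), and on none of the 11 adult arrays, where its measured signal was -6.93 to -5.93. The remaining old arrays were not well above background: old HIIT 2 to 4 measured -6.75, -4.09 and -6.56, old MICT 1, 2 and 4 measured -4.55, -4.06 and -6.25, and old controls 2 and 3 measured -4.92 and -5.53. Between old and adult controls the measured means were -4.20 ± 1.25 and -6.43 ± 0.48 (SD), and the groups did not overlap, as was so for 15.4% of all features.

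The age difference of Fgf21 was called, at 2.23 ± 0.72 log2 units as measured (n = 4 and 4, limma adjusted p = 0.0452). The gene passed the filter of at least 3 arrays above background through old arrays alone, so the filter was not blind to age. With no filter the difference was not called (limma adjusted p = 0.0633). With normexp it was 0.52 and not called (limma adjusted p = 0.184). Because no adult control was above background, no exact fold can be given. With each adult control raised to the lowest signal its software called above background, Fgf21 was 2.53-fold higher in old controls. The old controls that were not above background entered at their measured signal, so this is not a strict bound. Leaving out any of 13 of the 23 arrays singly ended the call, with adjusted p between 0.0501 and 0.122. Those arrays were old controls 1, 2 and 4, all 4 adult controls, old MICT 1, adult HIIT 1, 2 and 4, and adult MICT 3 and 4. Training differences of Fgf21 in old mice, as measured, were -0.995 ± 0.72 for HIIT and -0.39 ± 0.72 for MICT (limma adjusted p = 0.495 and 0.689). Only 1 of 4 arrays in each trained group and 2 of 4 old controls were above background, so these values lie mostly at background. In adult mice no fold can be given.

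Neutrophil and mast cell genes were above their adult range on the arrays with detected Fgf21, but also on some old arrays without it. Where Fgf21 was detected, the score for neutrophil and mast cell genes was 5.59 (old HIIT 1), 4.16 (old MICT 3), 1.45 (old control 1) and 7.09 (old control 4), and in adult arrays it was -0.36 to 0.26. It was also 3.15 in old HIIT 2, where Fgf21 was at -6.75. Old controls ran from 0.21 to 7.09 with a median of 1.58. Old control 1 lay below that median, and an old control without detected Fgf21 scored above it. The summed level of its 10 genes ran from 12.5 to 214.4 in old controls and from 11.2 to 15.0 in adult controls, with 7 to 10 and 7 of them above background. The adipocyte score did not follow Fgf21. It was 3.87, 2.61, 2.20 and 0.33 in old controls 1 to 4, lowest where Fgf21 was highest, and it reached 3.09 in adult HIIT and 2.13 in adult MICT, where Fgf21 was not detected. The part of neutrophil and mast cells in the Fgf21 signal was not tested.

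Genes around Fgf21 changed in both of the comparisons with many calls. In old MICT against old control, 5 of 13 receptors and inducing stress factors rose and 1 fell (21.1% and 8.09% of all features). Chac1, a glutathione-degrading enzyme of the amino acid response, was higher by 3.09 ± 0.71, Atf4, the transcription factor of that response, by 1.07 ± 0.26, and Fgfr3, above background on 3 of 4 old MICT and 1 of 4 old control arrays, by 1.32 ± 0.38. Fgfr4 was lower by -0.97 ± 0.34 (limma adjusted p between 0.00631 and 0.0395 for these 4). In old control against adult control 2 of the 13 rose and none fell, close to the 13.6% of all features called. They were Asns, which makes asparagine and is an ATF4 target (1.54 ± 0.38), and Klb, the co-receptor of Fgf21 (2.67 ± 0.78, limma adjusted p = 0.0319), which was above background on 4 of 4 old control and 1 of 4 adult control arrays. Both comparisons use the same old controls.

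Of 16 other tested secreted factors of muscle, only Nampt and Tnf were called in old MICT against old control, where 29.2% of all features were. Nampt, an enzyme of NAD synthesis that is also secreted, was higher (0.46 ± 0.13). Tnf, an inflammatory cytokine detected on 6 arrays of the series, was called lower (limma adjusted p = 0.0204). No old MICT array was above background for Tnf, against 3 of 4 old controls. With each old MICT array raised to the lowest signal called above background, Tnf was 2.16-fold lower in old MICT. The undetected old control entered at its measured signal, so this is not a strict bound. In old controls against adult controls Tnf was called higher (limma adjusted p = 0.0184), with 3 of 4 old controls and 1 of 4 adult controls above background. The difference of measured signals was 1.71 ± 0.43. The only adult array above background was adult control 2. Tnf thus passed the filter of at least 3 arrays through old arrays, so the filter was not blind to age. In the same comparison Nampt was lower by -0.40 ± 0.13 and Vegfb, a vascular growth factor, by -0.54 ± 0.18. Wfikkn2 was lower by -0.61 ± 0.16 in old controls and Id2 higher by 1.68 ± 0.36, each opposite to its value in old MICT against the same controls. The old controls enter these comparisons on opposite sides, so their level alone can give opposite signs. Gdf15, a stress-induced member of the TGF-beta family, was higher in old controls by 1.54 ± 0.43 (limma adjusted p = 0.0272). Over the 8 lists, old controls had 8 genes higher and 5 lower of 119 than adult controls, a total below the 13.6% of all features called, and none without old controls 1 and 2.

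As a description of likeness, the 3 genes whose signal followed each of the 8 always-detected genes most closely over the 23 arrays were found among 12382 genes above background on all arrays. For Mstn they were Maco1 (Pearson r = 0.94, Spearman rho = 0.84), Enox2 (0.91 and 0.86) and Sub1 (0.91 and 0.88). For Metrnl they were Gpx8 (0.96 and 0.92), Maged1 (0.94 and 0.90) and Rcn1 (0.92 and 0.91). For Fndc5 they were Rcan2 (0.95 and 0.94), Ldhb (0.95 and 0.93) and Acaa2 (0.95 and 0.92), and for Il15 Vgll2, Tmlhe and Gm5617 (r = 0.84 to 0.86). The r of deviations from the group means was 0.88 for Mstn with Maco1, 0.92 for Metrnl with Gpx8 and 0.92 for Fndc5 with Rcan2. For Acvr2b they were Brms1l, Armh3 and Fam174c (r = 0.85 to 0.86), for Igf1 Egfr, Papss2 and Dapk1 (0.86 to 0.88), for Igf1r Ing1, Adprm and Zfp110 (0.90 to 0.91) and for Fst Myo1d, Adgrg2 and Pde1a (0.73 to 0.75). Among the genes themselves, Mstn and Metrnl ran opposite (r = -0.77) and Fndc5 and Il15 together (0.73). All these values share the arrays, their slides and their cell make-up, and were chosen as the highest of many.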

How the data were processed

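Gastrocnemius RNA (200 ng per array, per the labels) was measured on 23 Agilent 1-colour arrays. Per the file headers, Agilent Feature Extraction 12.0.3.1 made the deposited processed intensity of each spot, with background subtracted and no scaling between arrays. A deposited file of the whole series holds a score per spot whose making is not stated in the sources used here; it followed the log10 intensity with r of at least 0.9995 and had array medians of -0.4 to -0.2. Array coordinates are of mm9, per the file headers.

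Of 62976 spots, 3671 controls and 283 probes with only outlier spots were left out. The log2 intensity was scaled to each array's 75th percentile, and spots of a probe were averaged. Probes well above background on at least 3 arrays were tested, the brightest probe per gene, which gave 27254 features. Symbols came from RefSeq by accession (28331 of 29786 RefSeq probes matched). Between 47.2% and 58.9% of gene spots were well above background, no gene spot was saturated, and the number of arrays limits the precision.

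Group means of all arrays were fitted with limma 3.58.1 in R 4.3.3 and data.table, version 1.17.8, with a trended prior variance; tests were 2-sided and p-values were adjusted after Benjamini and Hochberg over all features of each of the 9 comparisons. The design gives 4 separate mice per group. The genes and lists were chosen with earlier results of these data known. Named were the 10 genes; per pathway list and comparison the called genes of smallest p, at most 3 each way; and the 3 most alike genes. The script was tested on simulated data. Alternatives were other scalings and background correction (normexp, offset 50, on median signals), filters, variance models, a replicate block, slide, all probes, the deposited scores, fits of the compared groups alone, and arrays left out.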

Additional observations from a re-analysis of the deposited data

Results flagged for a closer look

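In adult HIIT, array 1 stood apart from the other arrays of its group for a pair of genes. Its Igf1r level was 1.10, where the lowest of the others had 1.43, and its Metrnl level was 1.70, where the lowest of the others had 2.43. Both gaps exceeded the 95% limit for a single stray value in a group of 4, a limit that chance passes in about 1 in 20 groups. They were the only 2 among 50 sets of a gene and a group, which is near that rate. The Acvr2b response to HIIT differed between ages by 0.56 log2 units: every old HIIT array lay above the old control mean and every adult HIIT array below the adult control mean. The test of that difference gave a limma adjusted p of 0.413.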

How the results depend on the processing

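Of the 10 genes, 2 were called in old MICT against old control. With arrays left out singly the count was 0 to 2. It was 1 with quantile scaling, with the percentile over probes above background on all arrays, with array weights, with the deposited value table and without old control 4 and old HIIT 1 together. It was 0 with slide in an additive model, with the compared groups alone, without old controls 1 and 2 together and without old MICT 1 and 2 together. The model with slide takes each regimen to act alike at both ages, so it does not estimate the same difference as the others. In old control against adult control the count was 1. It was 0 to 2 with arrays left out singly and 3 with array weights. It was 0 with quantile scaling, normexp, no filter or a stricter filter on dim probes, slide, the compared groups alone, and without old controls 1 and 2, old control 4 and old HIIT 1, or old MICT 1 and 2. Array weights also called 4 genes in adult HIIT against adult MICT (Mstn, Acvr2b, Fndc5 and Metrnl) and 1 (Fndc5) in the MICT response, where the main counts were 0. The cause was not tested.

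Mstn in old MICT lost its call in 13 of 38 alternatives, Metrnl in 7 of 38 and Fgf21 in old controls in 21 of 37. No called value changed sign. Features called numbered 7960 in old MICT against old control, against 4927 with the percentile over probes above background, 4293 with normexp, 4675 with the deposited table, 0 with slide or the compared groups alone, 514 without old controls 1 and 2 and 138 without old MICT 1 and 2. In old control against adult control they numbered 3699, against 2029, 2070, 8344 with array weights, 2131 with no filter, 0 with slide, 47 with the compared groups alone and 43 without old controls 1 and 2. The share of these calls that were higher was 31.2%, 35.5% with quantile scaling and 55.8% with the percentile over probes above background. In old HIIT against old control they numbered 234 and ran from 0 to 1243, in the MICT response 328 and from 0 to 2591, in adult HIIT against adult MICT 0 and up to 3248.

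With the replicate number as a block, 2 and 1 of the 10 genes were called in these comparisons and 8100 and 3887 features, and no call of the 10 genes changed. The labels do not say that a number marks shared mice or batches. Over 55 same-numbered pairs of arrays from different groups, the correlation of deviations from the group means was -0.41 to 0.37, with a median of 0.04. Pairs with unlike numbers had a median of -0.02. For 11 of 23 arrays, the mean correlation with arrays of other groups was highest for their own number.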
